A study of Mus musculus with 16 samples.

Results

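The acyl-CoA thioesterase cluster is a run of 6 related genes on mouse chromosome 12, Acot2, Acot1, Acot4, Acot3, Acot5 and Acot6 in that order, all read from the forward strand. DNase hypersensitive sites (DHS), stretches of open chromatin where the enzyme DNase I releases short fragments, were taken as members when they lay within 20 kb of any of the 6 genes. This gave 12 of the 51482 DHS regions of the genome, in a window of 163489 bp (chr12:85308811-85472299, mouse assembly mm9). A region is a set of peaks of the deposited lists that overlapped by at least 1 bp, and regions are numbered 1 to 12 along the chromosome.

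Liver nuclei came from male and female mice of 2 inbred strains. C57BL/6J (B6) is the strain of the reference assembly, and CAST/EiJ (CAST) descends from wild mice of another subspecies. The labels name no transgene, deletion or drug treatment in any group, the mice were 8 to 9 weeks old, and all digestions used 32 units of DNase I. Male B6, female B6, male CAST and female CAST had 4 libraries each, and the authors merged these before they called peaks. There was thus 1 list per group and no spread between replicates, so each comparison below describes 4 lists and carries no test, and its intervals cover counting error only. Because whole liver was digested, fewer cells of a type and less accessible chromatin per cell cannot be told apart.

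Acyl-CoA thioesterases split a fatty acyl-CoA into the free fatty acid and coenzyme A, and so set how much of each is available for oxidation, lipid synthesis or signalling. In the mouse, Acot1 is the cytosolic enzyme and Acot2 its mitochondrial relative, whereas Acot3, Acot4, Acot5 and Acot6 act in peroxisomes, Acot4 mainly on succinyl-CoA and other dicarboxylic acyl-CoAs. Several of these genes are known targets of PPARA, the nuclear receptor that switches on fat oxidation in the fasting liver. A DHS marks DNA that proteins have kept free of nucleosomes, typically a promoter at a transcription start site or an enhancer at some distance from one.

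The sequences below are the reference (B6) sequence of mm9, forward strand, read 5′ to 3′, and CAST may differ from it. The first 4 are 300-base windows centred on the strongest summit of regions that the comparisons turn on and whose summits lay outside exons. Capitals mark matches to 1 of 7 short motifs of liver factors, described further on.

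region 1, between Gm17673 and Acot2, chr12:85322585-85322884: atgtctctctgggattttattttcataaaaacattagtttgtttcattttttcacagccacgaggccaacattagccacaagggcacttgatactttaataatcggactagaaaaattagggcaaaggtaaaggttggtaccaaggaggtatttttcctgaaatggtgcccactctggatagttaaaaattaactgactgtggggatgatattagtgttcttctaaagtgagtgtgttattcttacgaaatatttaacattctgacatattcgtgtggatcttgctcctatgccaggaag

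region 4, intron of Acot1, chr12:85351275-85351574: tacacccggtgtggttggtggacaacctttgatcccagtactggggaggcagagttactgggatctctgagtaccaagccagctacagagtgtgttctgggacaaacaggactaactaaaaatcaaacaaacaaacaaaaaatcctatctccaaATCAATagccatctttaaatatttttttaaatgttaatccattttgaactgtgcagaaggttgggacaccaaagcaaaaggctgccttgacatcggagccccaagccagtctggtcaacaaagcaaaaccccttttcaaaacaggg

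region 6, between Acot1 and Acot4, chr12:85373800-85374099: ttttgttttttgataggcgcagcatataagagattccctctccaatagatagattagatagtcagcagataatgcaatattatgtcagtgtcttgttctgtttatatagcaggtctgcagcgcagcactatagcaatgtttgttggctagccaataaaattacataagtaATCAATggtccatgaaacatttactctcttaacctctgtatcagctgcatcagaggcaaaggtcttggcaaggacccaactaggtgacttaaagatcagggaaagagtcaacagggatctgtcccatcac

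region 8, intron of Acot4, chr12:85383210-85383509: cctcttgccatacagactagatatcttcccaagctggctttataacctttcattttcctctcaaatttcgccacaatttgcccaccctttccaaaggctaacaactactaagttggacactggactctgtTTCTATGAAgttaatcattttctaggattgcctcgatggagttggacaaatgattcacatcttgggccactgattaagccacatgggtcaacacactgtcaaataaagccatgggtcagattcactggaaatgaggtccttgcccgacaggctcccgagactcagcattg

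The next 3 are the 250 bases before the annotated starts of the genes whose start lay within a DHS region, shown because region 7 at the Acot4 start was in all 4 lists and regions 2 and 3 at the Acot2 and Acot1 starts were not.

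Acot2, chr12:85328561-85328810: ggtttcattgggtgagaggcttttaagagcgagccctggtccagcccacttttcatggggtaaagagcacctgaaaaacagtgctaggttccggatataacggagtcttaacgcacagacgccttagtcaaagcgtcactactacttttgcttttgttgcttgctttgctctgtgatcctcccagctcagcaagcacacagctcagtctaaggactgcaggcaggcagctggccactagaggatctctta

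Acot1, chr12:85350198-85350447: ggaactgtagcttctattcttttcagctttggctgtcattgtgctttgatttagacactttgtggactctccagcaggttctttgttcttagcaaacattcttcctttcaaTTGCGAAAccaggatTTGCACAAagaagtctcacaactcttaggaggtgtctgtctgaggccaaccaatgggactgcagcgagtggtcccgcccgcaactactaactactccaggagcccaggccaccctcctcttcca

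Acot4, chr12:85379079-85379328: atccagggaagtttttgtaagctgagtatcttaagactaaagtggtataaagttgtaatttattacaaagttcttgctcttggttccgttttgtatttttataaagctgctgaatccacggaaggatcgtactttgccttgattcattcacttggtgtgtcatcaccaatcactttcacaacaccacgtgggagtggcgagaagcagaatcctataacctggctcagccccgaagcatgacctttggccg

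The promoters were not near-copies of each other. Over these 250 bases, aligned end to end, the 6 genes shared between 41.6% (Acot1 and Acot6) and 48.6% (Acot1 and Acot4) of the aligned positions. Parts of the gene bodies recurred within the cluster. Of all 50-base stretches of Acot2, 80.1% occurred once in mm9 and 19.1% recurred only elsewhere in the cluster, and the other 5 genes lay between 82.9% unique in Acot1 and 96.0% in Acot6. The authors kept uniquely mapped reads only, and how this touched signal in the repeated stretches was not tested. The 12 regions themselves were 100% unique, apart from region 7 at 94.4%.

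All 12 regions were found in the male CAST list and 10 in male B6. The female lists held fewer, 8 in B6 and 7 in CAST. The lists differed in the same order in the whole genome, with 39562 CAST and 38751 B6 peaks in males and 26271 B6 and 24888 CAST peaks in females. Depth differed too: the genome-wide background, in fragments that overlap a position, was 14.2 (male CAST), 15.4 (male B6), 13.9 (female B6) and 7.94 (female CAST). At that background a peak needed a summit pileup of 28, 30, 29 and 19 fragments, in the same order. The fold enrichment needed at that background was 1.90 for either male list, 2.01 for female B6 and 2.24 for female CAST. Peaks of lower fold enrichment occur in the lists, such as 1.84 at Cpt1a in male B6, so these limits are not absolute. Fold enrichment, as deposited, is the pileup at the summit over the local background with 1 added to each, which lowers it most in the shallow female CAST list.

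**Figure D1:**
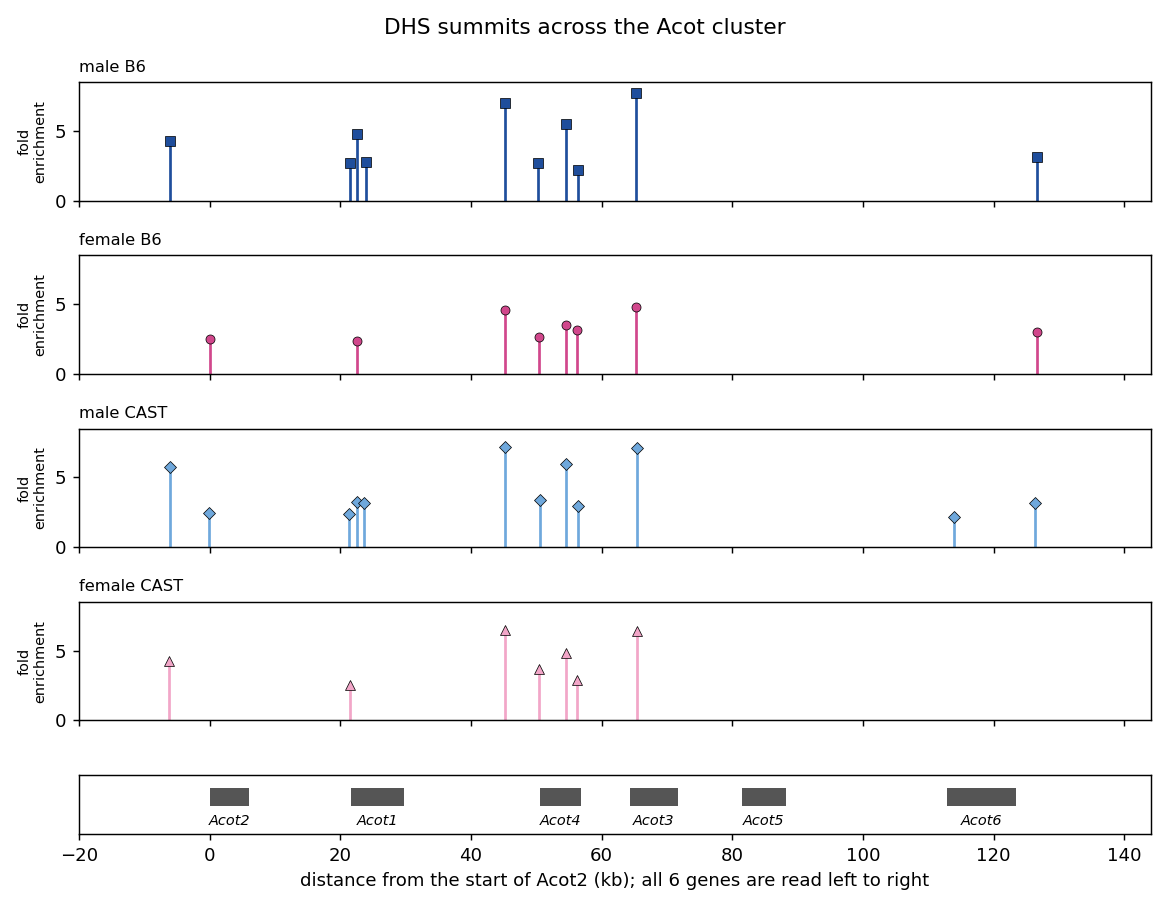
Position and strength of the DHS of the cluster in each list. The horizontal axis is the distance in kb from the start of Acot2, the vertical axis the fold enrichment at the summit (1 stem per peak), and grey bars mark the 6 genes. The tallest stems stand before and within Acot4 and shortly past the start of Acot3 in all 4 panels, and no stem stands within Acot5.

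Accessible sites were concentrated on the first 4 genes. Within 20 kb, Acot2, Acot4 and Acot3 had 5 regions each and Acot1 had 4, whereas Acot6 had 2 and Acot5 had 1, with windows of neighbouring genes sharing regions. The median protein-coding gene had 2.00 regions within 20 kb (22380 genes, upper quartile 5), and the median was 2.00 for either male list and 1 for either female list. The window also held the pseudogene Gm8385, with no region within 14149 bp of its start. The counts for Acot4 and Acot3 were 5 in all 4 lists. For Acot1 they were 4 in both male lists and 2 in both female lists, and for Acot2 they were 4 (B6) and 5 (CAST) for males and 2 for either female list, beside the lower median of all genes in the female lists. Acot5 (chromosome 12, 85410275 to 85416970), a peroxisomal member, held no DHS in its body in any list. The single region in its window was region 10, which began 437 bp past the start of Acot3.

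By the lists that held a peak, 5 of the 12 regions were in all 4 lists (35.6% of all regions), 4 in 3 lists (12.1%), 2 in 2 lists (17.2%) and 1 in a single list (35.2%). Of the 2 regions in 2 lists, 1 was in both male lists only, a class that holds 9.38% of all regions. None was in both female lists only, against 0.0622% of all regions.

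The strongest sites of the cluster were regions 10, 6 and 8, found in all 4 lists. Region 10 (chr12:85393538-85394520) lay 437 bp past the start of Acot3, a peroxisomal thioesterase, and its strongest summit fell in the intron of 1 Acot3 transcript, in the untranslated exon of 2 others and in an intron of the antisense noncoding RNA 4732463B04Rik. The region also overlapped an exon of that RNA and ended 237 bp from its start, which was the nearer of the 2 starts. Its fold enrichment in B6 was 7.74 in males and 4.83 in females, and in CAST it was 7.10 in males and 6.39 in females. These are high values, at the 89.1st, 78.1st, 83.6th and 81.1st percentile of their lists. The female B6 list stood lowest. Its log2 ratio to male B6, -0.68, was at the 14.9th percentile of all regions shared in B6, of which 8.55% had a ratio above 0.

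Region 6 (chr12:85373596-85374334), between Acot1 and Acot4 and ending 4995 bp before the Acot4 start, had a fold enrichment of 7.03 (male B6), 4.62 (female B6), 7.15 (male CAST) and 6.49 (female CAST). Region 8 (chr12:85382879-85383840) had its summit in the Acot4 intron 4031 bp past the start, which is also an intron of 4732463B04Rik on the other strand, and reached into an Acot4 coding exon. Its fold enrichment was 5.50, 3.50, 6.00 and 4.85, in the same list order. At both sites the 2 male lists and female CAST were nearer to one another than to female B6. The summits of region 6 fell within 28 bp of each other over the 4 lists and those of region 8 within 47 bp, compared with 230 bp at region 10, whose peaks were 802 to 979 bp wide.

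**Figure D2:**
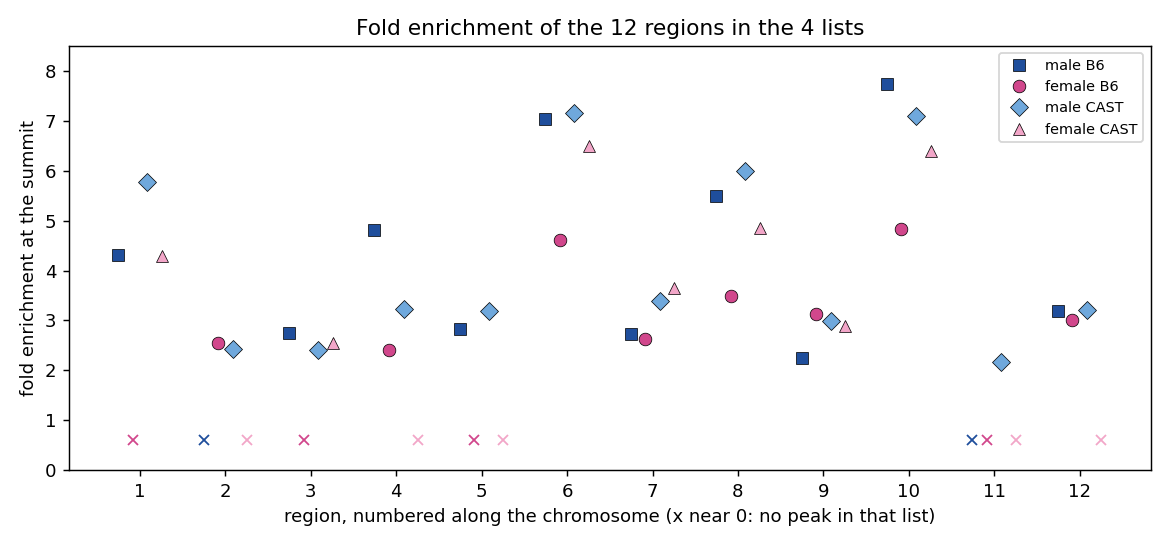
Fold enrichment of the 12 regions in the 4 lists. The horizontal axis numbers the regions along the chromosome, the vertical axis is the deposited fold enrichment at the summit, each symbol is 1 list and crosses near 0 mark lists with no peak. Regions 6, 8 and 10 carry the highest symbols in each list, and the crosses of regions 1, 3 and 5 include female B6.

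The peaks at start sites were weaker, between the 5.95th and 43.3rd percentile of fold enrichment in their lists. Region 7 (chr12:85378987-85379501) covered the start of Acot4, the dicarboxylic acyl-CoA thioesterase, in all 4 lists. Its fold enrichment was 2.73 for B6 males, 2.63 for B6 females, 3.40 for CAST males and 3.65 for CAST females. Both CAST values were above both B6 values. At the start of Acot1 (chromosome 12, 85350448 to 85358621), the cytosolic enzyme, region 3 (chr12:85350018-85350481) had 2.74 for B6 males, 2.40 for CAST males and 2.54 for CAST females, and no peak for B6 females. The male B6 peak reached the annotated start, whereas both CAST peaks ended before it. The male B6 pileup there was 3.58 times the genome-wide background, whereas 2.08 times was needed in female B6, a margin of 0.78 (log2). By fold enrichment the margin was 0.45, at a local background of 19.4 fragments in male B6. Over all regions shared in B6, the median log2 female over male pileup over genome-wide background was -0.74.

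Region 2 (chr12:85328367-85329008) covered the start of Acot2 (chromosome 12, 85328811 to 85334823), the mitochondrial enzyme. It was a peak in female B6, at 2.55, and in male CAST, at 2.43, and in neither of the other lists. Both peaks were weak, with pileups of 37 and 36 fragments (counting intervals 26.1 to 51.0 and 25.2 to 49.8) or 2.66 and 2.53 times the genome-wide background. A peak needed 1.95 times in male B6 and 2.39 times in female CAST. Presence at the Acot2 start thus followed neither sex nor strain. Acot5 and Acot6 had no DHS within 1 kb of their starts in any list.

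The site upstream of Acot2 and those in the Acot1 intron were each absent from at least 1 list. Region 1 (chr12:85322413-85323163), intergenic, ended 5648 bp before Acot2 and began 982 bp from the start of Gm17673, a protein-coding gene on the other strand, which was thus the nearer start. It had a fold enrichment of 4.32 for B6 males, 5.78 for CAST males and 4.29 for CAST females, but no peak for B6 females. The male B6 fold enrichment was 1.11 (log2) above what the female B6 list needed at its genome-wide background. This was the widest such margin of the 4 regions that were in 1 B6 list only. Across the strains in females, the corresponding margin of region 1 was 1.09 (log2).

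Region 4 (chr12:85351092-85351619), in the Acot1 intron with its summit 973 bp past the start, had a fold enrichment of 4.82 for B6 males, 2.41 for B6 females and 3.23 for CAST males, with no peak for CAST females. Male B6 stood above the other lists, at 97 fragments over a local background of 19.3, and the summits of the 3 lists lay within 22 bp of each other. Region 5 (chr12:85352363-85352904), further into the same intron, was the only region of the 12 found in both male lists and in neither female list. It had 2.83 (B6) and 3.19 (CAST). As a multiple of the genome-wide background, its pileup was 3.52 in male B6, where female B6 needed 2.08, and 3.37 in male CAST, where female CAST needed 2.39. The margins (log2) were 0.76 (B6) and 0.49 (CAST) by pileup, and 0.49 and 0.51 by fold enrichment. Over all shared regions, the median log2 female over male pileup over background was -0.74 in B6 and -0.48 in CAST.

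At the other end of Acot4, region 9 (chr12:85384833-85385344) lay in the 3′ untranslated exon. Here B6 males had a fold enrichment of 2.24, B6 females 3.13, CAST males 2.98 and CAST females 2.89. Male B6 was the lowest list here, the reverse of its place at regions 4 and 10. The pileup was 44 fragments in male B6 (counting interval 32.0 to 59.1) and 54 in female B6 (40.6 to 70.5), even though the female B6 background was the lower of the pair. The male B6 summit lay 130 bp from that of female B6, and the summits of the 4 lists spanned 218 bp, whereas the 2 female summits lay 12 bp apart. Ratios at region 9, except that of CAST over B6 in females, thus compare peaks whose centres differ.

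Acot6 (chromosome 12, 85441604 to 85452299), the last peroxisomal member, had region 11 (chr12:85442724-85443004) in its intron in male CAST only, with a fold enrichment of 2.16 and 32 fragments, near the limit of detection. The other region in its window, region 12 (chr12:85454822-85455571), lay at the neighbouring gene Dnalc1, whose first annotated start was covered by the male CAST peak but not by the B6 peaks, and had fold enrichments of 3.18 (male B6), 3.01 (female B6) and 3.21 (male CAST). Female CAST had no peak in the Acot6 window.

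**Figure D3:**
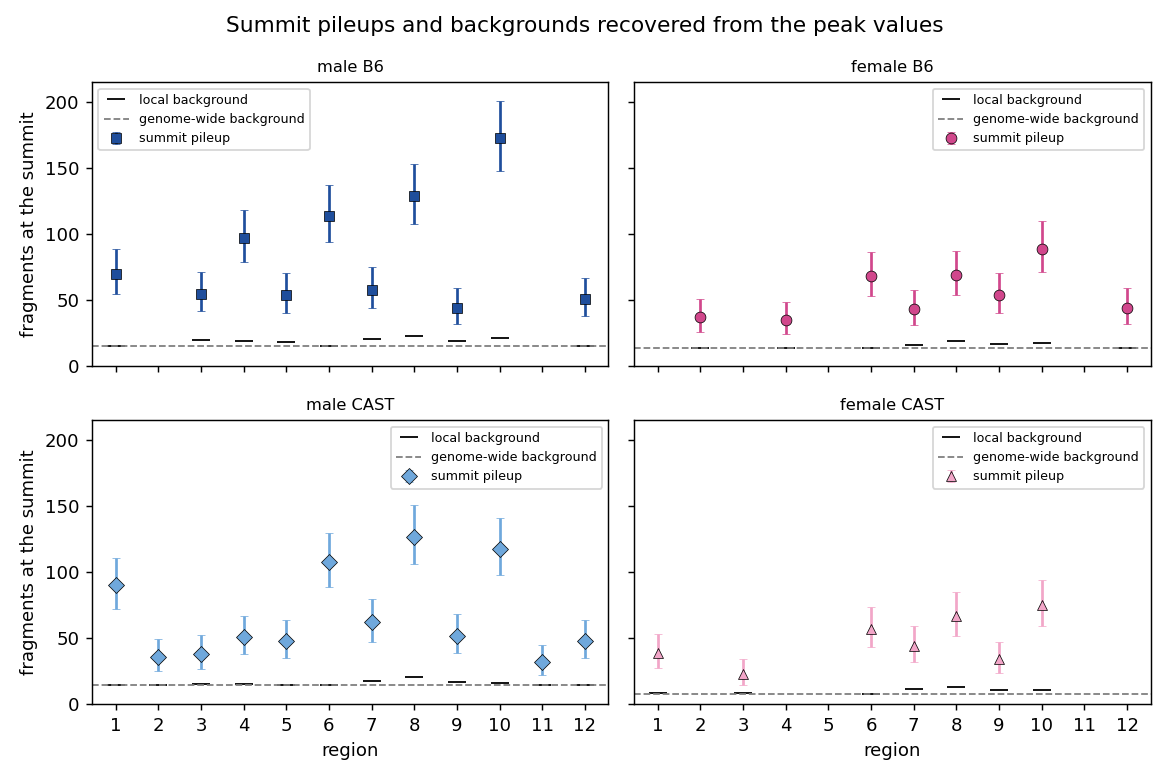
Summit pileups behind the peaks. Each panel is 1 list, the horizontal axis numbers the regions, the vertical axis is the number of fragments at the summit (symbols with 95% counting intervals), short bars are the local and the dashed line the genome-wide background. The dashed line of female CAST, at 7.94, is the lowest of the 4, and the pileups of that list run from 23 at region 3 to 75 at region 10.

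Sex was compared within each strain. In B6, 3 of the 11 regions in either list (regions 1, 3 and 5) were in the male list only, against 36.4% of all regions, and 1 of 11 (region 2) was in the female list only, against 5.13%. For the 7 regions in both lists, the median log2 female over male fold enrichment was -0.61 (counting interval -0.79 to -0.42), beside -0.40 over the 23644 regions shared in the genome. With pileup over the genome-wide background the order turned, to -0.61 beside -0.74 over all shared regions. The interval printed with this and each later median of the cluster is that of the summed pileups, set around the median. It is not an interval of the median and leaves out the spread between regions. It thus cannot show whether the cluster differed from all shared regions. None of the 7 reached a 2-fold difference of fold enrichment in either direction, against 2.36% of all shared regions. With pileup over background 1 of the 7 did, region 4 at a log2 ratio of -1.33, against 21.0% of all shared regions. The intervals of regions 4, 6, 8 and 10 lay below 0, but those of 6, 8 and 10 included the genome-wide median.

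Regions 4 and 9 lay farthest from that median, on opposite sides of it. At region 4 the log2 ratio was -1.0 (interval -1.60 to -0.43), just short of 2-fold, at the 2.37th percentile of all shared regions and the 2.72nd of regions of like strength. Its interval ended just below the genome-wide median. At region 9 it was 0.48 (interval -0.12 to 1.09), the 99.9th percentile, and the 99.6th of regions of like strength. Its interval included 0 but lay above the genome-wide median, and 8.55% of all shared regions had a ratio above 0. The Acot1 intron and the Acot4 3′ end thus stood at opposite ends of the B6 comparison.

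In CAST, 5 of 12 regions (2, 4, 5, 11 and 12) were in the male list only, against 40.3% of all regions, and 0 of 12 were in the female list only, against 3.90%. The median log2 female over male fold enrichment of the 7 shared regions was -0.14 (interval -0.34 to 0.06), beside -0.25 over 22764 regions. It was -0.04 (-0.71 to 0.61) at region 9 and -0.15 (-0.59 to 0.28) at region 10, and each of the 7 intervals included 0. No region differed 2-fold, against 1.28% of all shared regions. When pileup over the genome-wide background was used in place of fold enrichment, the median was 0.12, beside -0.48 over all shared regions, and 7 of the 7 regions lay above the median of all.

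**Figure D4:**
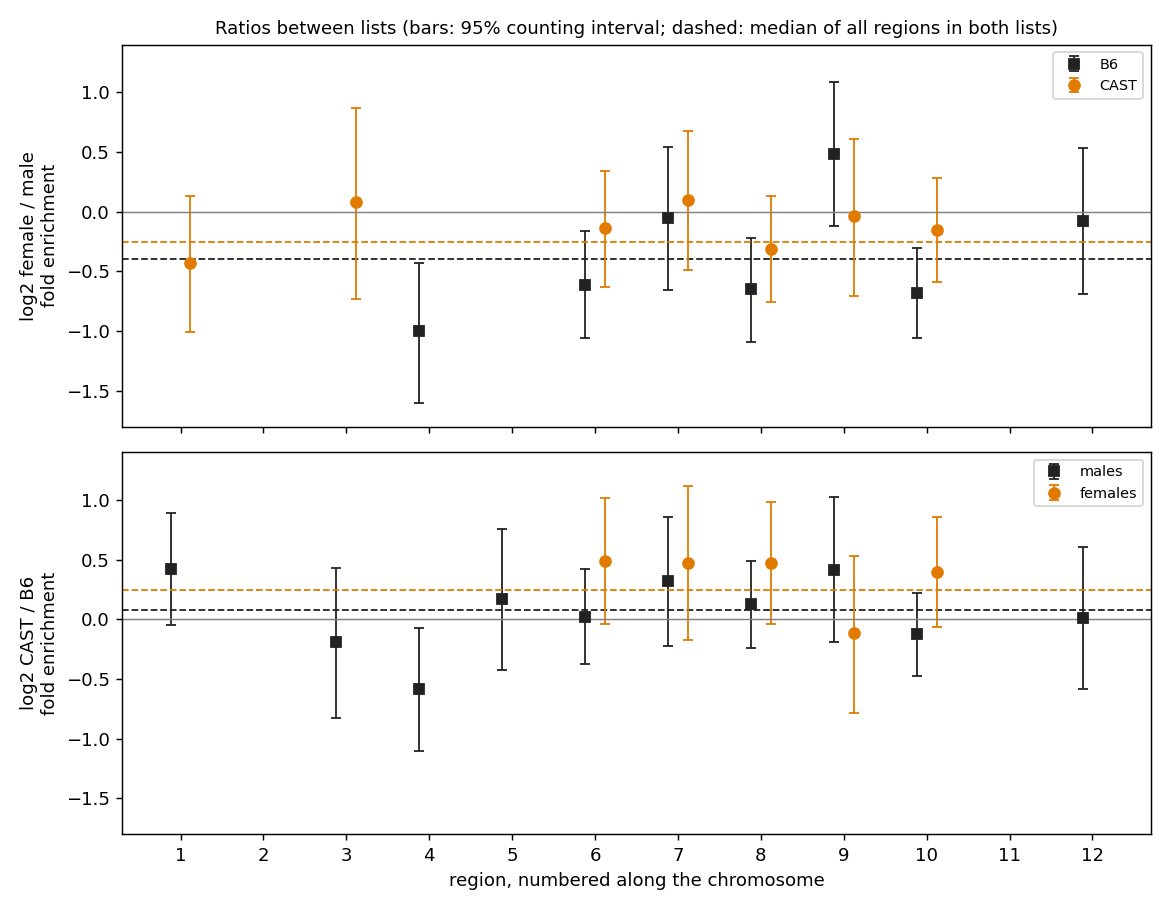
Differences between lists at the shared regions. The horizontal axis numbers the regions and the vertical axis is the log2 ratio of fold enrichments, female over male above and CAST over B6 below. Bars are 95% counting intervals and dashed lines the medians of all shared regions. In B6, region 4 at -1.0 lies below and region 9 at 0.48 above its dashed line.

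Strain was examined for males and females apart. Among males, 2 of 12 regions (2 and 11) were in CAST only, against 20.9% of all regions, and 0 of 12 in B6 only, against 19.1%. The median log2 CAST over B6 fold enrichment of the 10 shared regions was 0.08 (interval -0.07 to 0.22), the same as the 0.08 over 29099 regions, and 0 of 10 differed 2-fold, against 2.60%. Region 4 was lower in CAST, at -0.58 (interval -1.10 to -0.07), the 3.30th percentile of all shared regions and the 5.30th of those of like strength. Region 1 had 0.42 (interval -0.05 to 0.89).

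Among females, 2 of 10 regions (1 and 3) were in CAST only, against 18.3% of all regions, and 3 of 10 (2, 4 and 12) in B6 only, against 22.6%. The median log2 CAST over B6 fold enrichment of the 5 shared regions was 0.47 (interval 0.23 to 0.71), beside 0.25 over 18601 regions. None of the 5 differed 2-fold, against 2.41%. Each of regions 6, 7, 8 and 10 had a ratio between 0.40 and 0.49, at the 69.1st to 77.8th percentile of all shared regions. The interval of each included both 0 and the genome-wide median. Region 9 had -0.11 (interval -0.78 to 0.53). These comparisons share lists with those of the sexes, so a high or low list enters 2 of them.

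Presence at many of the regions depended on the length of the lists. Lists of equal size were made of the 24888 peaks of highest −log10 q in each. There the male peaks of region 9 dropped out and it was found in both female lists only, as were 334 of 35042 regions of the genome (0.953%). Region 7, at the Acot4 start, then had no peak in male B6, region 2, at the Acot2 start, had one in female B6 only, and region 3, at the Acot1 start, had one in female CAST only. Region 4 was found in both B6 lists only, region 12 in female B6 only, and regions 5 and 11 in no list. Regions 1, 6, 8 and 10 were in the same lists as before.

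The 7 motifs were searched on both strands in 300 bases at each summit. TTCNNNGAA, the motif of STAT5, the growth hormone-activated factor, was found in region 8 of the Acot4 intron, in capitals in the sequence above, 16 bp from the summit, and in 10.2% of all such windows. ATTGAT, bound by HNF6 and CUX proteins, was found in regions 4, 6 and 9, against 13% of all windows, at 7, 23 and 137 bp from the summit, in each case as ATCAAT on the forward strand. TTGCNNAA, a C/EBP motif, was found at 2 places in region 3, before the Acot1 start, and at 1 in region 11, against 17.2%, and TGTTTAC, a FOXA motif, in region 11, against 6.59%. The DR1 element, the kind of direct repeat that PPARA binds, had no match in the 12 windows (1.29% of all), nor had CAAAGTCCA of HNF4A (1.67%) or the CTCF core (2.99%). A match describes letters and does not show that a factor was bound.

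The other acyl-CoA thioesterases and related acyltransferases of the genome, 12 genes, gave a comparison at their promoters. A DHS within 1 kb of the start was found for 8 of 12 genes in each B6 list, 9 for CAST males and 7 for CAST females, and 7 had one in all 4 lists. Among these were Acot12, a cytosolic acetyl-CoA hydrolase, with fold enrichments of 10.7 (male B6), 7.37 (female B6), 12.6 (male CAST) and 10.7 (female CAST), and Acot8, a peroxisomal thioesterase, with 8.77, 6.46, 9.10 and 7.73. In each list they were above region 10, within 1 kb of the Acot3 start, and above the start-site regions of Acot1, Acot2 and Acot4. Acot9 had 2.32, 2.75 and 2.49 and no peak in female CAST, and Acnat1, a peroxisomal acyltransferase, had a DHS in male CAST only, at 6.69. Acot10, Them5 and Acnat2 had none.

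Of 22 genes of fatty acid and acyl-CoA handling, many of them PPARA targets, the B6 male list had a promoter DHS at 20, the B6 female list at 18 and either CAST list at 19, and 17 had one throughout. The exceptions were Cpt1a, which brings fatty acids into mitochondria (1.84, 2.40 and 2.31, no peak in female B6), Cd36, a fatty acid transporter (2.57, 3.17 and 2.90, no peak in female B6), the pantetheinase Vnn1 (male B6 only, 2.45), the fatty acid hydroxylase Cyp4a14 (female B6 only, 2.24) and Cyp4a10 (no list). No promoter of either list of genes differed 2-fold between the sexes of a strain or between the strains of a sex, where both lists had a peak. The median log2 female over male ratio was -0.46 for the thioesterases and -0.33 for the acyl-CoA genes in B6, beside -0.40 for all shared regions. In CAST it was -0.23 and -0.16, beside -0.25.

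Genes outside the window whose promoter DHS had the most similar values over the 4 lists were found among 11919 genes by the Euclidean distance in log2 fold enrichment. For Acot3 they were Pkp2 (distance 0.0677) and Tlk2 (0.0836), for Acot4 Pex6 (0.133) and Pkdcc (0.147), and for Acot2 Ccdc155 (0.0385) and Kat2a (0.0890). For Acot1 they were Dnttip1 and Wfdc3, which share a promoter DHS (0.136). The Acot1 values compared were the highest within 1 kb of its start, those of region 4 in 3 lists and that of region 3 in female CAST. A list without a peak entered as 1, so the match of Acot2 rests on 2 measured values and the shared absence of a peak in the other lists. With at most 4 values per gene, such likeness is only a description.

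The labelled tissue was checked by promoter DHS of marker genes. Of 6 hepatocyte markers, all 6 had a DHS in the male lists, 5 had one for B6 females and 4 for CAST females, and Alb, Ttr, Cps1 and Hnf4a had one in all 4 lists. Of 6 leukocyte markers 0 had one in any list. Of 4 endothelial markers B6 males had 3 (2.08 to 2.55), B6 females 1 (2.35) and CAST 0, of 3 stellate cell markers Reln had one in all but female CAST (2.41 to 3.05), and of 3 bile duct markers Sox9 had one in all 4 (3.13 to 4.63). The part of other cell types in the differences at the cluster was not tested.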

How the data were processed

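DNase-seq reads of 16 libraries, 4 per sex and strain, were mapped by the authors with Bowtie2, keeping uniquely mapped reads, to mm9 for B6 and to an mm9 carrying CAST variants for CAST, with coordinates converted back. The libraries of each group were merged, peaks were called with MACS2, and blacklisted regions and peaks of duplicate reads were removed. Per peak, the deposited values are the fold enrichment at the summit (a ratio of pileup to local background, 1 added to each), the −log10 p-value and −log10 q-value, the summit position and an integer score, which the authors' caller derives from the q-value and which was not used. All were made on pooled reads, and 0 columns held single libraries.

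Groups came from the library titles. Peaks overlapping by 1 bp were joined, and the highest fold enrichment of a list was taken per region. Annotation was GENCODE for mm9. Summit pileup, taken as a whole number, and background were recovered from fold enrichment and p-value, and give the 95% counting intervals. The −log10 p-value was reproduced to within 0.02 for at least 99.97% of peaks in each list. Intervals printed with medians use pileups summed over the regions, set around the median. They are not intervals of the median and leave out the spread between regions. Fragments are not independent molecules. Like strength means a geometric mean fold enrichment within 0.25 (log2), a choice made after seeing the data. Named genes were the 6 members, every region and other start sites in the window, listed genes with a DHS in some lists only or a 2-fold ratio, and the 2 nearest genes in pattern. The genes, gene lists and markers were chosen with earlier results of these data known. Joining, ratios and pileup recovery were tested on simulated data. Tools were Python 3.11.15, numpy 2.4.6, pandas 2.3.3, scipy 1.17.1 and Biopython 1.88.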

Additional observations from a re-analysis of the deposited data

Results flagged for a closer look

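Some regions had effects of opposite sign in the 2 strains or sexes, and none of these differences was tested, since each group had 1 list. Region 9, at the Acot4 3′ end, had a log2 female over male ratio of 0.48 in B6 and -0.04 in CAST, and a log2 CAST over B6 ratio of 0.41 in males and -0.11 in females. Region 10, near the Acot3 start, had a CAST over B6 ratio of -0.12 in males and 0.40 in females. Region 7, at the Acot4 start, had a female over male ratio of -0.05 in B6 and 0.10 in CAST. The summits of the 4 lists spanned 231 bp at region 7, 218 bp at region 9 and 230 bp at region 10. All these ratios except that of region 9 in females thus compare peaks whose centres differ. The 2 female summits of region 9 lay 12 bp apart. The counting intervals of each of these ratios included 0. With pileup over the genome-wide background the signs of region 9 were alike, at 0.44 and 0.23 for sex and 0.35 and 0.14 for strain, while those of regions 7 and 10 stayed opposite. Less the median of all shared regions, the sex ratios of region 7 were 0.35 in both strains and those of region 9 were 0.88 and 0.21. Region 2, at the Acot2 start, was a peak in the opposite sex in the 2 strains, with a fold enrichment of 2.55 in female B6 and 2.43 in male CAST.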

How the results depend on the processing

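No paired analysis was possible because each group was deposited as 1 pooled list, and for the same reason no library could be left out in turn. Of the recomputed counts and medians, 94 stayed near the reported value and 22 moved. With a stricter threshold (−log10 q of at least 15.7) the B6 lists held 5 (male) and 3 (female) regions and the CAST lists 4 (male) and 3 (female), with 3 in all 4 lists, 0 in 3 lists and 1 in 2 lists (region 1, in both male lists). With lists of equal size, 5 were left in either male list, with 3 in all 4 lists, 0 in both male lists only, 1 in both female lists only, 2 in 3 lists and 3 in a single list. The regions in a single list numbered 2 with an overlap of 50% of both peaks, 2 with a window of 50 kb and 0 when depth was matched. Less the median of all shared regions, the median log2 female over male ratio was -0.21 in B6 and 0.11 in CAST and the median CAST over B6 ratio in females was 0.22. With pileup over the genome-wide background the CAST sex median was 0.12, and the strain difference in males as percentile rank was -0.928 points. The cause of these shifts was not tested beyond the smaller lists that the stricter threshold and equal sizes leave. With pileup over background, region 4 passed a 2-fold difference between the sexes in B6 (-1.33), as did 21.0% of all shared regions. Female CAST was the shallowest list.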

Other observations

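Region 12, at Dnalc1, an axonemal dynein light chain gene next to Acot6, joined peaks of unlike extent. Its summits in the 2 B6 lists lay 330 and 312 bp from that in male CAST, where the peak was 694 bp wide against 279 bp in male B6 and 238 bp in female B6. When an overlap of 50% of both peaks was required, male CAST and the B6 lists held separate regions there. The log2 CAST over B6 ratio of region 12 in males (0.01) thus compares peaks whose centres differ. Its female over male ratio in B6 (-0.08) compares 2 peaks that stayed joined. No other region of the cluster was split by that requirement.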
